A study of Mus musculus with 8 samples.

Results

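The 10 genes described here encode interferon-inducible GTPases, and they were taken from the 32285 genes listed for every sample by their symbols: the immunity-related GTPases (IRG) Igtp, Irgm1, Irgm2, Iigp1, Gm4841 and F830016B08Rik, and the guanylate-binding proteins (GBP) Gbp2, Gbp3, Gbp7 and Gbp10. The genes were selected on their CPM in the TAC-4w heart section, where they stood high, so those section values describe the choice and were not tested. Male wild type C57BL/6J mice, 8 weeks old at the start, had the aortic arch narrowed by transverse aortic constriction (TAC), which puts a pressure load on the left ventricle, or a sham operation with no ligature. Hearts were taken 2 weeks (TAC-2w), 4 weeks (TAC-4w) or 6 weeks (TAC-6w) after the constriction, and for sham no time of collection was used here. Each condition had 1 spatial transcriptomics (ST) section and 1 single-cell RNA sequencing (scRNA-seq) library, and the number of animals behind each was not given in the sources used here. By the sample labels the sham and TAC-2w sections shared batch 1, while the TAC-4w section was batch 2 and the TAC-6w section batch 3. Among the libraries TAC-2w was batch 1 and TAC-4w batch 2, and TAC-6w and sham shared batch 3. TAC-4w and its batch therefore cannot be told apart in either kind of sample, and with 1 sample per condition no test between conditions was possible.

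Interferons are secreted proteins that switch on defence genes in nearly every nucleated cell. Interferon-gamma, released mainly by T cells and natural killer (NK) cells, acts through the kinases Jak1 and Jak2 and the transcription factor Irf1, among others, and type I interferons through Stat2 and Irf9, among others. IRG and GBP proteins are among their most strongly induced products in mice. They bind the membranes that surround intracellular microbes, and Igtp, Irgm1 and Irgm2 act as regulators that keep effector IRG proteins such as Iigp1 off the cell's own membranes.

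In the GRCm38.p6 assembly of RefSeq, Igtp (chr11:58199556-58207592) and Irgm2 (chr11:58214977-58222783) were neighbours, with 7384 bases between them, and Irgm1 lay on the same chromosome (chr11:48865245-48871420). Gbp2 (chr3:142620663-142638008), Gbp3 (chr3:142560016-142573213) and Gbp7 (chr3:142530336-142550151) formed a cluster, and Gbp10 was on chromosome 5 (chr5:105215699-105239533). The other 3 genes are placed after the sequences. RefSeq promoter windows, which run from 250 bases before to 50 bases after an annotated start, covered 6 of the 10 genes in 7 windows (Gbp3 had more than 1). The windows of 4 genes are printed because they hold the letters to which interferon-activated factors are known to bind, and because the neighbours Igtp and Irgm2 share much of theirs. Capitals mark matches to the core of the interferon-stimulated response element, GAAANNGAA, searched on both strands. In the Irgm1 window 2 matches overlap, and in the Gbp2 window the match lies on the other strand and reads in reverse complement.
Igtp, GRCm38.p6 chr11:58199306-58199605, plus strand: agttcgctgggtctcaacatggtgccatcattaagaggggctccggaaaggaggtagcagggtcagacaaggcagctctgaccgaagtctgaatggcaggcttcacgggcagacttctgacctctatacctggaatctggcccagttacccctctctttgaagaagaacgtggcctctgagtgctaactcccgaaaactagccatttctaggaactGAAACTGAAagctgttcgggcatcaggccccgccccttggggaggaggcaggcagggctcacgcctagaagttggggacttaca
Irgm2, GRCm38.p6 chr11:58214727-58215026, plus strand: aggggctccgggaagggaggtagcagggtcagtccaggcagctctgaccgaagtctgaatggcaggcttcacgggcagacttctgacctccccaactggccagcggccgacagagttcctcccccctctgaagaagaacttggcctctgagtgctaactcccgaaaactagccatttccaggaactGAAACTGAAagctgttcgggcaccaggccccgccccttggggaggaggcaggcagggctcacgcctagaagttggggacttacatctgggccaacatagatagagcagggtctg
Irgm1, GRCm38.p6 chr11:48871371-48871670, minus strand: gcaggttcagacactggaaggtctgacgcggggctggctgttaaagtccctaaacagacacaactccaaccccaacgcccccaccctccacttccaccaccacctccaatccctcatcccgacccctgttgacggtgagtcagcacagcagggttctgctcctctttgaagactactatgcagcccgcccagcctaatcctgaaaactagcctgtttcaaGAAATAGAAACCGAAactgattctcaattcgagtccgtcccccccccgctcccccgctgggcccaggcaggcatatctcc
Gbp2, GRCm38.p6 chr3:142620413-142620712, plus strand: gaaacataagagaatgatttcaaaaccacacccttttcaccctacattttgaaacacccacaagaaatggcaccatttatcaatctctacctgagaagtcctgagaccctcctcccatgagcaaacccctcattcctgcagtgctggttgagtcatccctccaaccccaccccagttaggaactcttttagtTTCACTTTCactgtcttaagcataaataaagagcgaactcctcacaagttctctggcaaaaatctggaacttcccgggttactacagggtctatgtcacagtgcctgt

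With the annotated start counted as 0, the match began at -34 for Igtp, at -64 for Irgm2, at -30 and -24 for Irgm1 and at -58 for Gbp2. The longest stretch of identical letters in the Igtp and Irgm2 windows was 61 bases, and it did not include the match. Windows of Gbp3 and Gbp7 held matches too, so that 6 of the 7 windows (85.7%) had 1, against 2812 of all 32851 windows (8.56%). The gamma-activated site, spelled TTCNNNGAA, was found in 3 of the 7 windows (42.9%), those of Igtp, Irgm2 and Gbp7, against 2726 of all windows (8.30%). Of the 9 windows of other IRG and GBP genes, 7 held the first motif and 5 the second. A match is a run of letters and no measurement of binding.

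Iigp1, Gm4841 and F830016B08Rik lie on chromosome 18, and no sequence is shown for them.

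The ST sections had between 25996378 and 48754396 UMIs (unique molecular identifiers, 1 for each captured transcript end), over 1228 to 2193 spots, each a small area of tissue that can hold several cells. The libraries kept 5399 to 7965 cells, and the sample labels describe an isolation of nuclei where the methods describe cells, so which of them was loaded is not settled here. Pairs of libraries shared between 8 and 19 cell barcodes. The level of a gene is its UMI count per 1000000 UMIs of the section, library or cell type (CPM), given with an exact Poisson 95% interval, and a ratio of levels has an exact conditional binomial 95% interval, both covering counting error only. A gene is said to have risen or fallen only where its ratio was at least 2 or at most 0.5 and 1 of the sums had at least 50 UMIs. All 6 cardiomyocyte markers had UMIs in every section, at a summed level of 25047 to 34187 CPM, whereas the libraries held only 10 to 107 cardiomyocyte-like cells. All 10 genes had UMIs in every section and every library, and 8 of them had at least 50 UMIs in the sham section. Genes within each of the 2 families are related, and how any reads shared between related genes were assigned cannot be seen in the counts.

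The summed level of the 10 genes was 86.4 CPM (82.8 to 90.01) in the sham section, 68.4 CPM (66.1 to 70.8) in TAC-2w, 515 CPM (507 to 523) in TAC-4w and 145 CPM (142 to 148) in TAC-6w. TAC-4w stood above all other sections, TAC-6w came next, and no pair of intervals overlapped. The ratio to sham was 0.792 (0.751 to 0.836) at TAC-2w, within the shared batch, 5.97 (5.71 to 6.24) at TAC-4w and 1.68 (1.60 to 1.76) at TAC-6w. A section cannot tell fewer cells of a type from less RNA per cell, so these are levels of the tissue as a whole. All 10 genes were past 2-fold at TAC-4w, where 5.28% of the 11205 genes with enough UMIs were. The choice of genes used this contrast, so the count is no result of its own. By that ratio they ranked between 4 (F830016B08Rik) and 256 (Gbp2) among the genes counted. At TAC-6w, 3 of the 10 had risen (Irgm1, Gbp3 and Gbp10), against 4.66% of 11952 genes, and at TAC-2w none of the 8 with enough UMIs had, against 0.657% of 11423 genes. Gbp10 and Gm4841, with 19 and 45 UMIs in sham, were counted at TAC-6w only through the TAC-6w section. Both counts use the sham section of the contrast on which the genes were chosen, so neither is independent of the choice. Over all genes counted, the median ratio to sham was 1.03 for the TAC-2w section, 1.16 for the TAC-4w section and 1.24 for the TAC-6w section.

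**Figure D1:**
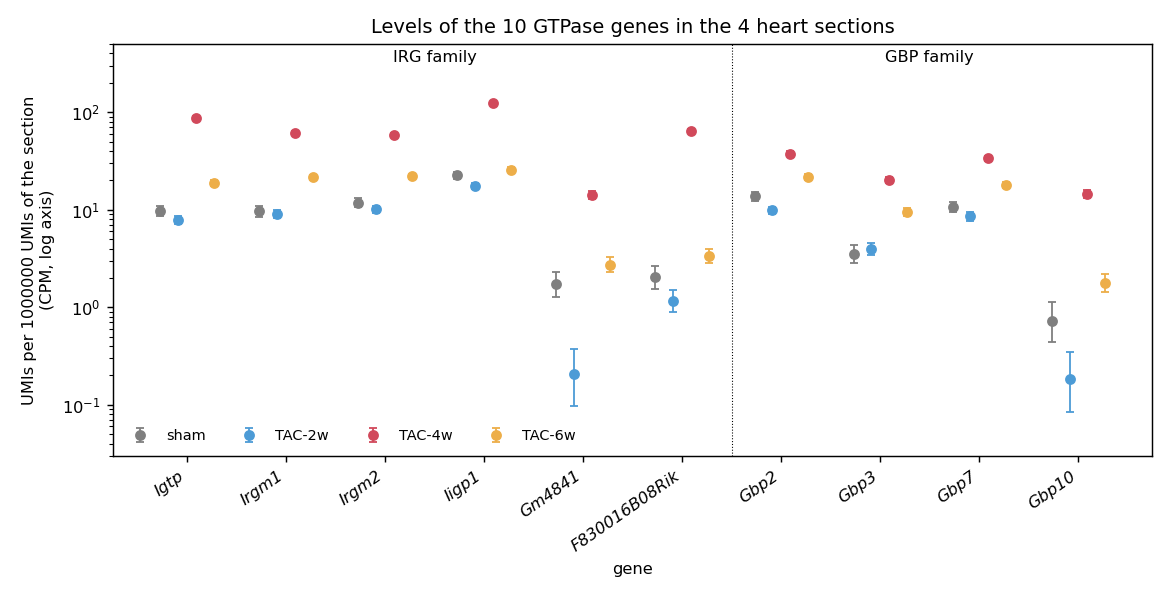
Level of each of the 10 genes in the 4 ST sections, in CPM on a log axis. Points are section levels, colours are conditions and bars are exact Poisson 95% intervals for counting error. In every gene the TAC-4w point lies highest, and TAC-2w lies lowest in all but Gbp3, whose lowest point is sham at 3.54 CPM.

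Among the regulators, Igtp was at 9.73 CPM in sham, 7.84 in TAC-2w, 87.2 in TAC-4w and 18.8 in TAC-6w. Irgm1 was at 9.66, 9.13, 61.7 and 21.5 CPM in the same order, and Irgm2 at 11.8, 10.1, 58.9 and 22.1 CPM. The TAC-4w ratio to sham was 8.96 (7.87 to 10.2) for Igtp, 6.39 (5.604 to 7.32) for Irgm1 and 4.97 (4.41 to 5.63) for Irgm2. Their order at TAC-6w was another, since Irgm1 stood at 2.22 (1.94 to 2.56) times sham and Igtp at 1.93 (1.68 to 2.23) times, with intervals that overlapped.

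Iigp1, the effector IRG, was at 22.6 CPM in sham, 17.5 in TAC-2w, 123 in TAC-4w and 25.7 in TAC-6w. Its ratio of 5.45 (5.00 to 5.95) at TAC-4w was followed by 1.14 (1.03 to 1.26) at TAC-6w, the lowest of the 10 genes at that time. F830016B08Rik, an IRG gene with a clone-based name, had 53 UMIs in sham, 57 in TAC-2w, 2054 in TAC-4w and 163 in TAC-6w, or 2.04, 1.17, 64.3 and 3.38 CPM. Relative to TAC-2w, Gbp10 and Gm4841 had higher TAC-4w ratios than this gene. Relative to sham and to TAC-6w, F830016B08Rik had the highest ratio of the 10 genes at TAC-4w. Its level there was 31.5 (24.0 to 42.3) times that of sham and 19.1 (16.2 to 22.5) times that of TAC-6w, and its share of the UMIs of the 10 genes went from 2.36% in sham to 12.5% in TAC-4w and was 2.33% in TAC-6w. Gm4841 had 45, 10, 457 and 132 UMIs, or 1.73, 0.205, 14.3 and 2.73 CPM, with a TAC-4w ratio of 8.27 (6.08 to 11.5).

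The GBP genes moved less as a family. The 4 GBP genes summed to 28.7, 22.5, 106 and 50.7 CPM and the 6 IRG genes to 57.6, 45.9, 410 and 94.2 CPM, so the TAC-4w ratio was 3.68 (3.40 to 3.98) for GBP and 7.11 (6.74 to 7.505) for IRG. At TAC-6w the families were close, at 1.77 (1.63 to 1.92) for GBP and 1.64 (1.54 to 1.73) for IRG. Gbp2, at 13.8, 9.82, 37.4 and 21.6 CPM, had the smallest TAC-4w ratio of the 10 genes, 2.72 (2.41 to 3.07), and Gbp7, at 10.7, 8.53, 33.6 and 17.9 CPM, the next, 3.14 (2.75 to 3.60). The intervals of these 2 genes overlapped. Gbp3, at 3.54, 3.98, 20.2 and 9.40 CPM, reached 5.70 (4.57 to 7.17) times sham, and was the only 1 of the 10 with a TAC-2w level above sham, by 1.12 (0.873 to 1.46) times. Gbp10 had 19, 9, 462 and 86 UMIs, or 0.731, 0.185, 14.5 and 1.78 CPM, and a TAC-4w ratio of 19.8 (12.5 to 33.2).

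Markers of other cell types differed between the sections too. The summed level of the 6 macrophage markers was 177 CPM in sham, 164 in TAC-2w, 313 in TAC-4w and 244 in TAC-6w, and that of the 6 endothelial markers 1204, 1163, 1591 and 2118 CPM. T cell markers stood at 3.92, 2.97, 10.0 and 13.5 CPM and NK cell markers at 0.539, 0.759, 3.73 and 3.87 CPM, with all 6 of either list detected at TAC-4w and TAC-6w. The 6 neutrophil markers went from 30.7 CPM in sham to 6.48, 89.2 and 16.7 CPM. Of these lists, the macrophage and neutrophil sums were highest at TAC-4w, as the GTPase sum was, and the others at TAC-6w. The TAC-4w ratios to sham were 1.77 for macrophages, 2.90 for neutrophils, 2.56 for T cells, 1.32 for endothelial cells and 6.92 for NK cells. In sham only 3 of the 6 NK cell markers had UMIs, so their ratio rests on a low count. The 5.97 of the GTPase genes is the contrast on which they were chosen, so it cannot be ranked against these lists. Mitochondrial genes took 51.5% of the sham UMIs and 42.2% to 44.2% in the TAC sections. The part of these differences in the GTPase levels was not tested.

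Other genes of the interferon pathway were read from lists chosen with earlier results of these data known. Of the 9 other IRG and GBP genes with enough UMIs, 8 rose at TAC-4w, with a median ratio of 5.85 against 1.16 for all genes. Tgtp1, Gm12185, Gbp5 and 9930111J21Rik2 had 37, 14, 15 and 46 UMIs in sham and were counted only through TAC-4w, where they had more. The 5 genes with at least 50 UMIs in sham all rose, with a median of 4.56. Gbp6 was at 28.4 CPM in sham, 19.8 in TAC-2w, 126 in TAC-4w and 54.98 in TAC-6w, and Gbp4, Ifi47 and Tgtp2 had TAC-4w ratios of 5.85, 4.56 and 6.44. 9930111J21Rik2 was not past the fold, at 1.52. The ligand itself was scarcely seen in the sections: Ifng had 2, 0, 3 and 5 UMIs, and none of the 8 genes of the list of its inducers had 50 UMIs in a section. Il18, Il18r1, Tbx21 and Il12rb1 led that list with 74, 67, 25 and 16 UMIs over the 4 sections. Its receptors and kinases stayed within the fold at TAC-4w, with ratios of 1.06 for Ifngr1, 0.786 for Ifngr2, 0.868 for Jak1 and 1.25 for Jak2. Downstream, the transcription factor gene Irf1 (2.22) and Socs1, a feedback inhibitor (3.39), rose.

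Genes of the type I interferon pathway were read in the same way. Ifnb1 had 1 UMI in TAC-6w and 0 in the other sections, Ifna2 and Ifna4 had 0 in all 4, and the receptor genes Ifnar1 (1.04) and Ifnar2 (1.33) and the factor gene Irf3 (1.10) stayed within the fold at TAC-4w. Stat2 (2.42), Irf9 (2.39) and Irf7 (6.49), the factors that carry the signal, rose, as 3 of 7 genes. Of 21 type I target genes, 17 rose at TAC-4w with a median ratio of 2.47, among them Ifi27l2a (2.33), Bst2 (2.23), Rsad2 (2.15), Xaf1 (3.77) and Ifit3 (4.38), and of the 18 with at least 50 UMIs in sham 14 rose. At TAC-6w 14 of the 21 had risen with a median of 2.17, whereas 1 of 8 other IRG and GBP genes had (Gbp5, 3.01), with a median of 1.64. Gbp5 had under 50 UMIs in sham and was counted only through TAC-6w. Among genes with at least 50 UMIs in sham, 11 of 18 type I targets and 0 of 5 other IRG and GBP genes rose at TAC-6w. Genes of MHC class I presentation, which display peptides to T cells, had risen in 11 of 13 at TAC-4w (median 4.45) and in 7 of 13 at TAC-6w (median 2.14), with B2m at 405, 366, 2062 and 1172 CPM and H2-K1 at 154, 122, 1129 and 457 CPM. Of the 12 MHC class I genes with at least 50 UMIs in sham, 10 rose at TAC-4w and 6 at TAC-6w. H2-D1 stood at 4.45 times sham at TAC-4w and Psme1, a proteasome activator gene, at 1.82 times. Interferon-gamma targets other than GTPases rose in 5 of 8 at TAC-4w (median 2.37), where Cd274 stood at 6.86 and Wars at 2.30 but Gsdmd at 1.34, Irf8 at 1.28 and Cxcl9 at 1.01. Of the 6 of these targets with at least 50 UMIs in sham, 3 rose. At TAC-2w, 1 gene of all these lists had risen, Gbp5 (2.28), which was counted only through the TAC-2w section. At that time 2 had fallen, the chemokine genes Cxcl9 (0.385) and Cxcl10 (0.0820, from 52 to 8 UMIs).

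The spread over the tissue was read from single spots. At least 1 UMI of the 10 genes was found in 58.4% of sham spots, 73.3% of TAC-2w spots, 98.9% of TAC-4w spots (1215 of 1228) and 81.4% of TAC-6w spots. With each spot thinned to 5000 UMIs these shares were 31.6%, 26.9%, 90.1% and 51.3%, so the order of sham and TAC-2w turned with thinning while TAC-4w stayed highest. For F830016B08Rik the unthinned share was 2.09% in sham and 74.3% in TAC-4w, and for Iigp1 25.2% and 85.3%. The level per spot in TAC-4w, in UMIs of the 10 genes per 10000 UMIs, had a median of 4.86 and a 10th percentile of 2.69, and in sham a median of 0.466 and a 90th percentile of 2.04. The lower tail of TAC-4w thus lay above the upper tail of sham, and also above that of TAC-2w (1.48) but not above that of TAC-6w (2.99).

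**Figure D2:**
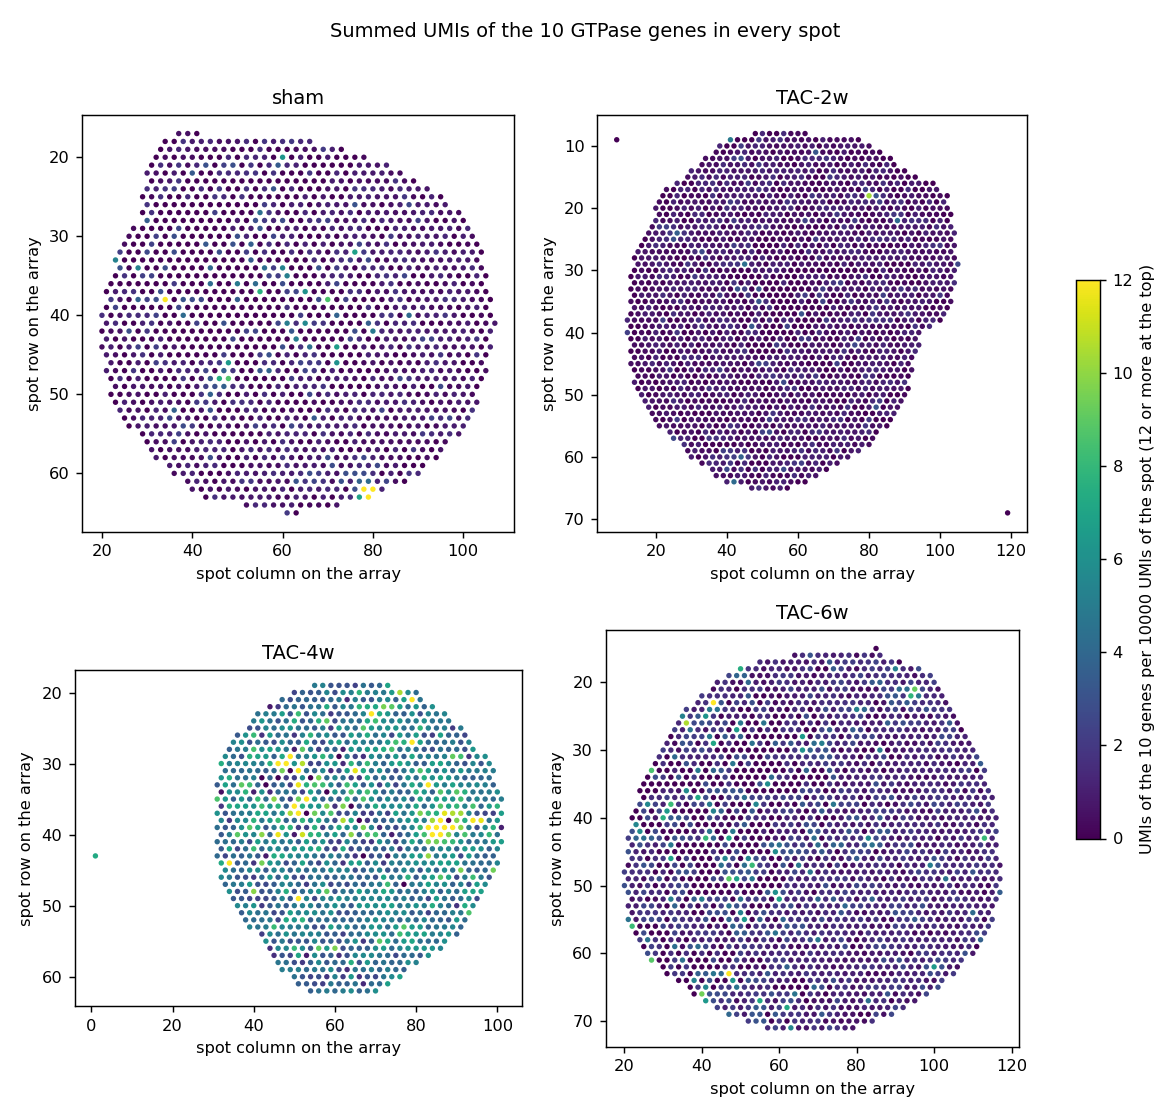
Spots of the 4 ST sections at their positions on the capture area, coloured by UMIs of the 10 genes per 10000 UMIs of the spot on 1 colour scale. TAC-4w spots are raised across the section, with a median of 4.86 against 0.466 in sham, with a patch of high spots on the right, and sham has a patch at its lower edge.

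The TAC-4w level hardly changed with the depth of spots, at 501 to 536 CPM over the depth classes from 500 UMIs upward, nor much with position, at 466 CPM (443 to 489) in the 126 spots at the tissue edge and 521 CPM (513 to 530) in the 1102 others. In sham the edge was the higher, at 107 CPM (96.1 to 118) against 83.2 CPM (79.4 to 87.0). However, a single spot that adjoined only 3 others gave 87 of the 379 GTPase UMIs of the 150 sham edge spots. The sham difference thus rests in part on that spot. Neighbouring spots resembled each other more than they did for most genes: Moran's I of the summed level, which is 0 with no spatial order, was 0.119 in sham, 0.0559 in TAC-2w, 0.128 in TAC-4w and 0.102 in TAC-6w, at the 98.5, 96.8, 98.3 and 98.4 percentile of genes with at least 50 UMIs. Among single genes of TAC-4w it ran from 0.0227 for Gbp10 (percentile 70.9) to 0.0989 for Irgm2 (percentile 97.3). Genes with more UMIs can reach a higher I, and the sum has more UMIs than any gene in it.

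Small groups of spots were rich in these transcripts. The 1% of spots with the most UMIs of the 10 genes held 14.7% of them in sham (17 spots), 5.37% in TAC-2w, 4.68% in TAC-4w (13 spots) and 6.84% in TAC-6w. In sham 8 of these 17 spots adjoined each other as a single patch, and the strongest spot had 87 GTPase UMIs among 38361, or 2268 CPM. The sham patch was rich in the genes that were scarce elsewhere: the 17 spots held 55.6% of the Gm4841 UMIs, 57.9% of those of Gbp10 and 41.5% of those of F830016B08Rik. In TAC-4w the 13 spots held 11.8% of Gm4841 but only 1.85% of F830016B08Rik and 1.73% of Gbp10, and 8 of them also formed 1 patch. Without these spots in either section the TAC-4w ratio to sham was 6.64 for the sum, 52.7 for F830016B08Rik, 46.0 for Gbp10 and 16.3 for Gm4841. The spots left out were picked by these same UMIs and held a larger share of them in sham, so these ratios had to rise.

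T cell markers were higher in these spots than in the rest, though at TAC-4w on a low count. Their summed level was 34.9 CPM (18 UMIs) in the 17 sham spots against 3.30 CPM in the rest. It was 18.3 CPM (9 UMIs) against 9.92 CPM in TAC-4w and 64.6 CPM (56 UMIs) against 12.5 CPM in TAC-6w. NK cell markers were at 22.4 CPM (11 UMIs) against 3.43 CPM in TAC-4w and at 23.1 CPM (20 UMIs) against 3.52 CPM in TAC-6w. In TAC-2w the top spots had 0 UMIs of them against 0.769 CPM in the rest, and in sham they had 2 UMIs, both too few for a direction. Dendritic cell markers were higher in these spots in sham (27.2 against 6.91 CPM, 14 UMIs), TAC-2w (7 UMIs) and TAC-6w (20 UMIs). In TAC-4w they had 1 UMI (2.03 against 8.84 CPM), too few for a direction. Neutrophil markers were higher in TAC-6w (48.4 against 16.1 CPM) and close in TAC-4w (83.3 against 89.3 CPM). In sham and TAC-2w they were lower, on only 5 and 3 UMIs. Among spots with at least 5000 UMIs, the 80 sham spots with a T cell marker UMI had 186 CPM of the GTPase genes and the 1326 without had 79.5 CPM, a ratio of 2.34 (2.07 to 2.63). The former were deeper, with a median of 23527 UMIs against 17872. In the TAC sections the same ratio was 1.23 (1.08 to 1.40) at TAC-2w, 1.09 (1.05 to 1.13) at TAC-4w and 1.13 (1.07 to 1.19) at TAC-6w. For spots with an NK cell marker UMI it was 2.45 (1.86 to 3.17) in sham (11 spots), 0.612 (0.406 to 0.886) in TAC-2w (28 spots), 1.11 (1.05 to 1.18) in TAC-4w and 1.25 (1.15 to 1.36) in TAC-6w, so TAC-2w went the other way. For spots with a macrophage marker UMI it was above 1 in sham, at 1.22 (1.05 to 1.41), and below 1 in TAC-6w, at 0.854 (0.750 to 0.976). At TAC-2w (1.04, 0.909 to 1.21) and TAC-4w (1.05, 0.936 to 1.19) the interval held 1. Spots with a macrophage marker UMI were much deeper, with medians of 19737 against 8501.5 UMIs in sham and 26258 against 6900.5 in TAC-6w. The part of depth in these ratios was not tested. By endothelial markers, the 298 TAC-4w spots with the highest level had 573 CPM of the GTPase genes and the 298 with the lowest had 453 CPM, a ratio of 1.26 (1.21 to 1.32), and in sham the values were 98.6 and 75.1 CPM. The part of these cells in the levels was not tested.

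In the scRNA-seq libraries clusters were named from 6 markers per type, with the GTPase and interferon genes left out of the clustering. In the sham library the summed level of the 10 genes was 825 CPM (794 to 856) in endothelial-like cells, more than in any other type. It was 374 CPM (317 to 439) in cardiomyocyte-like cells, 368 CPM (236 to 548) in platelet-like cells, 341 CPM (331 to 352) in macrophage-like cells and 296 CPM (291 to 301) in fibroblast-like cells. The first 3 of these 4 had intervals that overlapped, and macrophage-like cells lay above fibroblast-like cells. T cell-like (223 CPM), neutrophil-like (205 CPM), dendritic cell-like (201 CPM), NK cell-like (183 CPM), smooth muscle cell-like (179 CPM) and monocyte-like cells (156 CPM) followed, each with an interval that overlapped its neighbour's. B cell-like cells had 118 CPM (94.9 to 146) and red blood cell-like cells 42.5 CPM (27.2 to 63.2). Fibroblast-like cells gave 62.3% of the GTPase UMIs of the sham library, with 66.5% of all its UMIs, and endothelial-like cells 12.0%, with 4.59% of all.

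**Figure D3:**
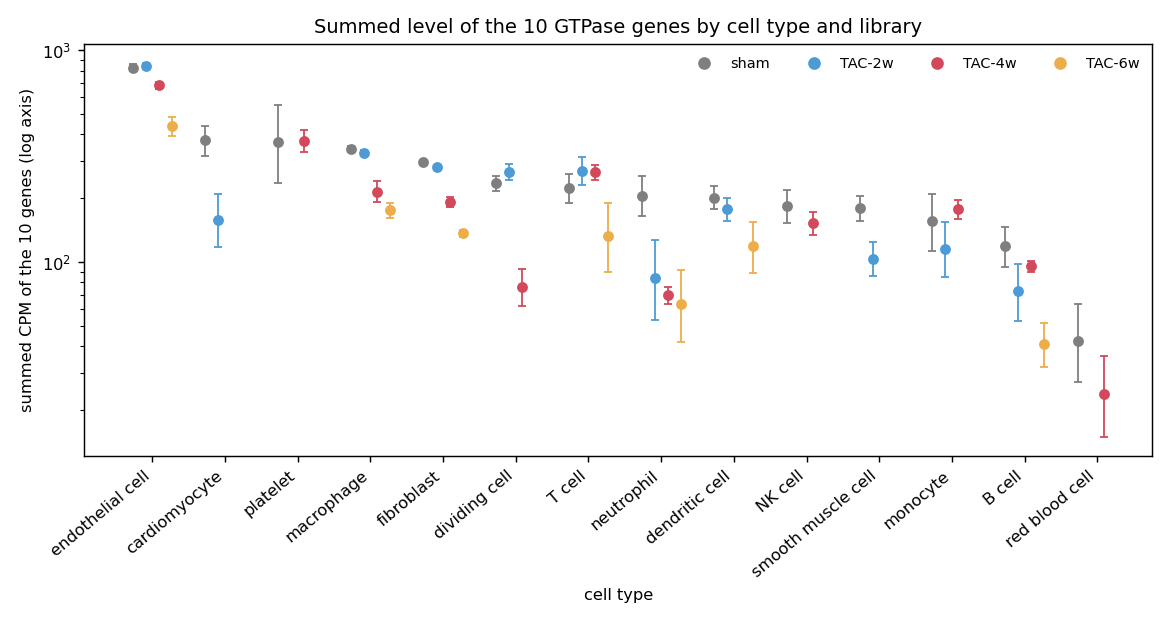
Summed level of the 10 genes by cell type and library, in CPM on a log axis, for combinations with at least 50 cells. Points are levels and bars exact Poisson 95% intervals for counting error. Endothelial-like cells lie highest in sham (825 CPM), TAC-2w (840 CPM), TAC-4w (681 CPM) and TAC-6w (437 CPM).

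The single genes had different patterns over the cell types. Iigp1 was at 378 CPM in the endothelial-like cells of sham, 80.4 CPM in fibroblast-like and 64.0 CPM in macrophage-like cells, and Irgm1, Irgm2 and Gbp3 also peaked in endothelial-like cells among the types of that library that had at least 50 cells, at 70.6, 36.3 and 55.7 CPM. For Gbp3 the interval of monocyte-like cells, which had 10 UMIs, overlapped that of endothelial-like cells. Gbp7 was at 141 CPM in endothelial-like cells, 103 in NK cell-like and 95.6 in T cell-like cells. Gbp2 was at 76.3 CPM (32 UMIs) in neutrophil-like and 72.4 CPM in endothelial-like cells, with intervals that overlapped. Igtp was at 292 CPM in sham platelet-like cells (19 UMIs in 53 cells) and at 350 CPM in those of TAC-4w (261 UMIs in 552 cells), against 46.8 CPM in sham endothelial-like cells. Gm4841 and Gbp10 had 54 and 34 UMIs in the whole sham library, too few to order the cell types.

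F830016B08Rik, which had the highest TAC-4w section ratio to sham of the 10 genes, was at 270 CPM in sham cardiomyocyte-like cells (109 UMIs in 107 cells). It was at 33.1 CPM in macrophage-like, 22.6 in endothelial-like and 10.9 in fibroblast-like cells. It had 0 UMIs in B cell-like, T cell-like and neutrophil-like cells, which allows up to 4.03, 4.16 and 7.15 CPM. The ratio to cardiomyocyte transcripts was not the same in every type. F830016B08Rik had 5.64 UMIs per 1000 UMIs of the 6 cardiomyocyte markers in the sham cardiomyocyte-like cells, but 106 in macrophage-like, 119 in fibroblast-like and 102 in endothelial-like cells. In the sham section the gene was at only 2.04 CPM, where the 6 markers summed to 31694 CPM. These markers stood at 47934 CPM in the sham cardiomyocyte-like cells. The 270 CPM of those cells therefore cannot be taken as the level in cardiomyocytes of the section, and the reason was not tested. Only 36 of the 107 cells had a UMI of any of the 10 genes. The genes that led their cluster included the atrial genes Myl7, Sln and Myl4. In cardiomyocyte-like cells the level of F830016B08Rik was 88.5 CPM in the TAC-2w library, 78.5 CPM at TAC-4w (9 UMIs in 23 cells) and 164 CPM at TAC-6w (3 UMIs in 10 cells). The last 2 rest on too few cells for a comparison.

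**Figure D4:**
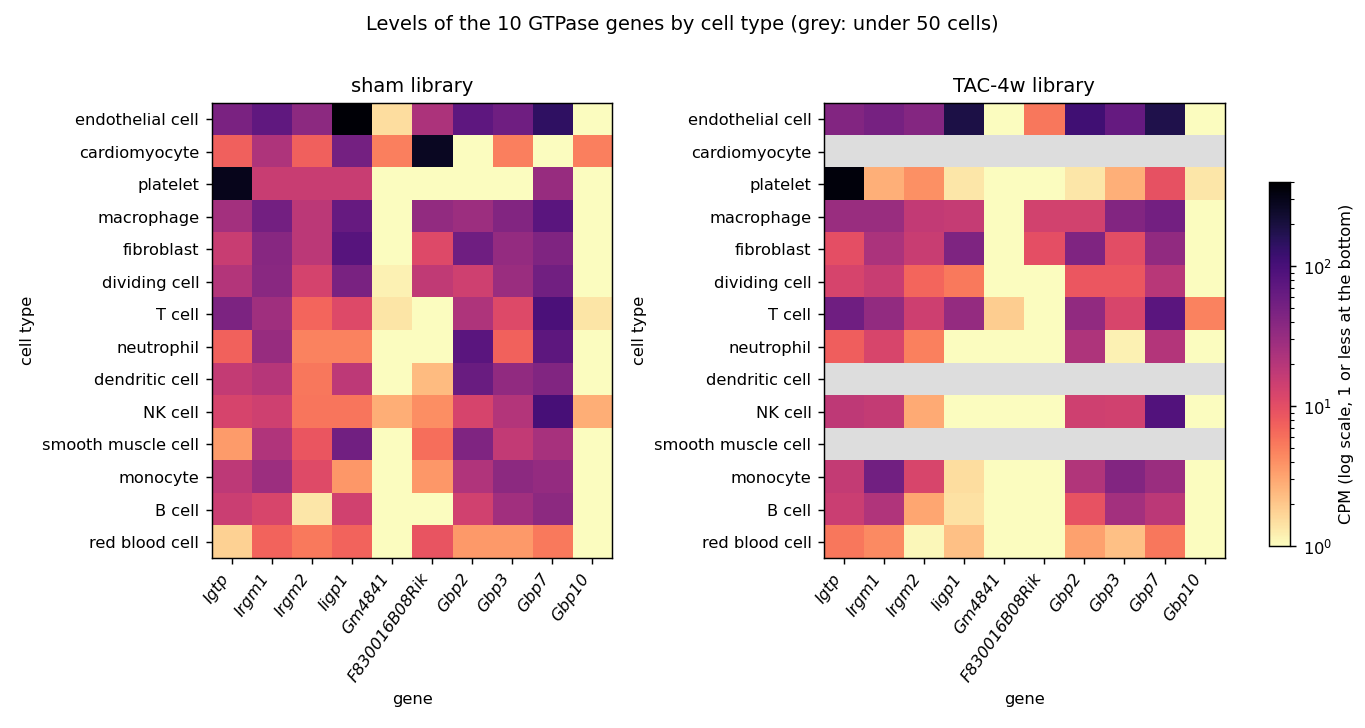
Level of each of the 10 genes in the cell types of the sham and TAC-4w libraries, in CPM on a log colour scale, with types of under 50 cells in grey. Endothelial-like cells carry Iigp1 (378 CPM in sham), platelet-like cells Igtp (292 CPM in sham) and cardiomyocyte-like cells F830016B08Rik (270 CPM in sham).

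Cells with at least 1 UMI of the 10 genes, counted after thinning to 1000 UMIs per cell, were 49.9% (44.9 to 54.8) of endothelial-like, 26.3% (24.1 to 28.5) of macrophage-like and 22.1% (20.9 to 23.4) of fibroblast-like cells in sham. In red blood cell-like cells the share was 3.90% (0.811 to 10.97). Haemoglobin genes such as Hbb-bt led that class and take up part of its thinned UMIs, so this share is no measured background. The unthinned shares were, in the same order, 82.7%, 76.9%, 78.9% and 14.3% at median depths of 5174.5, 7324, 10565 and 7520 UMIs. At TAC-4w the thinned shares were 43.0% (38.5 to 47.7), 20.8% (15.1 to 27.4), 17.4% (14.0 to 21.4) and 4.55% (1.25 to 11.2). All but the last were thus above the share in red blood cell-like cells. They lay below their own sham values, but each interval overlapped that of sham.

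The libraries as a whole did not show the rise of the TAC-4w section. Over all cells the summed level was 316 CPM in sham, 310.2 in TAC-2w, 197.5 in TAC-4w and 143 in TAC-6w. The ratio to sham was 0.982 (0.964 to 1.00) at TAC-2w, 0.625 (0.609 to 0.641) at TAC-4w and 0.454 (0.438 to 0.469) at TAC-6w, the last within a shared batch. The section side of this difference at TAC-4w was fixed by the choice of genes. All genes counted also leaned to opposite sides of sham, with a median ratio of 1.16 in the TAC-4w section and 0.926 in its library. At TAC-6w these medians were 1.24 and 0.925. The share of all genes that went in opposite directions was not counted, so no such count is given for the 10. None of the 9 genes with enough UMIs rose in the TAC-4w library, where 14.0% of all genes did, and 3 fell, where 18.3% did: Iigp1 (0.374), Gm4841 (0.279) and F830016B08Rik (0.189). Over all cells Igtp stood above sham, at 1.33 (1.23 to 1.45), from 18.9 to 25.1 CPM. Platelet-like cells held 261 of its 978 UMIs at TAC-4w and 19 of 1381 in sham. Gbp10, with 34 and 18 UMIs, stood at 0.996 (0.529 to 1.81). At TAC-6w none of the 9 rose, where 2.56% of genes did, and 5 fell, where 6.09% did, namely Irgm1, Iigp1, F830016B08Rik, Gbp2 and Gbp3.

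**Figure D5:**
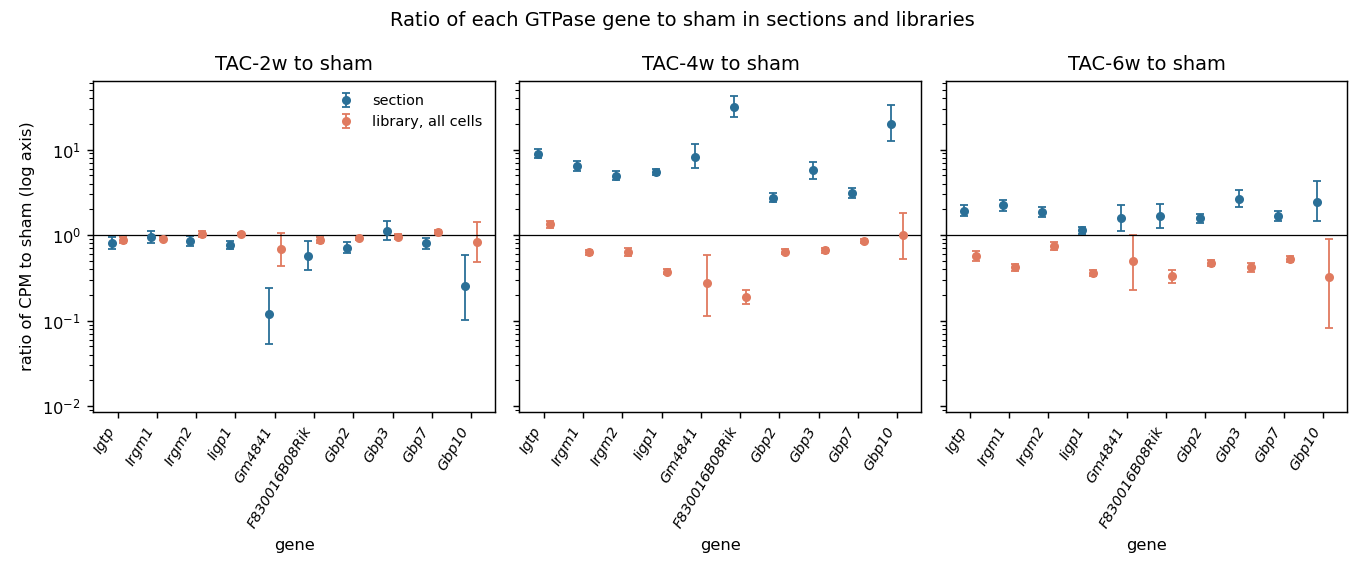
Ratio to sham of each of the 10 genes in the ST sections and in the scRNA-seq libraries over all cells, on a log axis with 95% intervals for counting error. At TAC-4w every section ratio lies above 1, up to 31.5 for F830016B08Rik, whose library ratio is 0.189, and at TAC-6w every library ratio lies below its section ratio.

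The libraries also differed in their cells. From sham to TAC-4w fibroblast-like cells went from 4486 to 431, macrophage-like cells from 1609 to 185, B cell-like cells from 231 to 2429, neutrophil-like cells from 145 to 1254 and platelet-like cells from 53 to 552, while endothelial-like cells were 492 and 477. With the level of each type weighted by its share of the sham library the TAC-4w ratio of the sum was 0.662 (0.634 to 0.691). With these weights it was 0.826 for Igtp, 0.496 for Iigp1, 0.473 for Gm4841 and 0.614 for F830016B08Rik. With weights from the TAC-4w library these 4 values were 1.02, 0.481, 0.333 and 0.421. Types with under 50 cells in either library, cardiomyocyte-like cells among them, were left out of the weighted values. Within types the ratio of the sum was below 1 with its whole interval in 5 of 11 types, namely endothelial-like (0.825, 0.784 to 0.869), fibroblast-like (0.647, 0.609 to 0.686), macrophage-like (0.628, 0.558 to 0.706), neutrophil-like (0.339, 0.268 to 0.433) and dividing cells (0.323, 0.258 to 0.400). In T cell-like cells it was 1.19 (0.994 to 1.42), and 0.915 after thinning. Of the 5 genes with enough UMIs in T cell-like cells 1 rose at TAC-4w, against 305 of 4679 genes. It was Iigp1, at 2.92 (1.40 to 7.04) times sham, with 8 UMIs in sham and 69 in TAC-4w. At TAC-6w the ratio of the sum was below 1 in all 7 types with at least 50 cells, between 0.309 in neutrophil-like and 0.596 in T cell-like cells.

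Within the endothelial-like cells the families differed. In TAC-4w the IRG sum was 0.586 (0.547 to 0.628) times sham and the GBP sum 1.32 (1.21 to 1.43) times. Iigp1 was at 378, 383, 187 and 138 CPM over the 4 libraries, Gbp7 at 141, 153, 177 and 101 CPM and Gbp2 at 72.4, 87.0, 113 and 50.5 CPM, so that Iigp1 was low at both late times and the GBP genes at TAC-6w only. The class was made of different cells, however. Cluster 4, led by the capillary genes Fabp4 and Gpihbp1, had 314 cells in sham and 475 in TAC-4w, and cluster 13, led by Npr3 and Vwf, had 178 and 2. In sham the summed level was 1113 CPM in cluster 4 and 628 CPM in cluster 13. In cluster 4 alone the TAC-4w ratio was 0.614 (0.577 to 0.654) for the sum, 0.465 (0.428 to 0.505) for IRG and 0.871 (0.790 to 0.961) for GBP, so the direction of the GBP genes turned. At TAC-4w 2 of 8 genes fell in endothelial-like cells, Iigp1 and F830016B08Rik, against 7.56% of genes, and at TAC-6w 3 of 8, against 10.8%.

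Fibroblast-like and macrophage-like cells were lower at both late times. In fibroblast-like cells the summed level was 296, 282, 191 and 136.5 CPM, and in macrophage-like cells 341, 327, 214.5 and 175 CPM. Gbp3 (0.311) was the 1 of 8 genes that fell in fibroblast-like cells at TAC-4w, against 4.03% of genes, and 5 of 8 fell at TAC-6w, against 4.70%. In macrophage-like cells 3 of 8 fell at TAC-4w, against 5.90% of genes, and 3 of 8 at TAC-6w, against 4.03%. Iigp1 and F830016B08Rik were among them both times. Here too the make-up of the class differed. Cluster 1, led by Sfrp2 and Gdf10 among other genes, held 2420 of 4486 fibroblast-like cells in sham and 310 of 431 in TAC-4w, while cluster 0, led by Pla1a and Cxcl14 among others, held 2128 of 2875 in TAC-6w. The TAC-4w ratio was 0.533 (0.491 to 0.577) in cluster 1 and 0.941 (0.840 to 1.05) in cluster 0, and the TAC-6w ratio 0.411 and 0.484.

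Ifng, the ligand, was measured better in the libraries than in the sections. It had 587 UMIs in sham, 300 in TAC-2w, 327 in TAC-4w and 104 in TAC-6w, of which NK cell-like and T cell-like cells held 86.5%, 91.3%, 95.7% and 75% (78 of 104). Its level over all cells was 8.03 CPM (7.39 to 8.70) in sham, 4.46 in TAC-2w, 8.41 (7.52 to 9.37) in TAC-4w and 3.86 in TAC-6w, so that over all cells the intervals of sham and TAC-4w overlapped. At TAC-4w its level fell in both NK cell-like and T cell-like cells. Whether these classes were made of the same kinds of cells in sham and TAC-4w was not tested. In NK cell-like cells Ifng was at 458 CPM in sham (330 UMIs in 153 cells) and 81.5 CPM in TAC-4w (139 UMIs in 341 cells), a ratio of 0.178 (0.145 to 0.218). In T cell-like cells it was at 247 CPM in sham, 301 in TAC-2w, 81.7 in TAC-4w and 257 in TAC-6w, with a TAC-4w ratio of 0.331 (0.267 to 0.411). The lists differed in the libraries. Over all cells of TAC-4w, 8 of the 13 other IRG and GBP genes with enough UMIs had risen and 3 had fallen, with a median ratio of 2.08, against 14.0% and 18.3% of all genes and a median of 0.926. By type, 1 of 8 had risen in fibroblast-like (median 0.854), none of 12 in macrophage-like (0.991) and 2 of 11 in endothelial-like cells (1.42). In B cell-like cells 1 of 7 had risen (1.16) and in T cell-like cells 1 of 6 (1.05). Of all genes, 686 of 12415, 345 of 9434, 573 of 8163, 714 of 8597 and 305 of 4679 rose in these types, in that order. The medians of all genes were 1.08, 1.03, 1.11, 1.10 and 1.10. At TAC-6w none had risen over all cells and 9 of 13 had fallen. At TAC-4w the median ratio of type I target genes was 0.414 in fibroblast-like and 0.520 in macrophage-like cells, against 1.08 and 1.03 for all genes, and that of the MHC class I genes 0.881 and 0.809. In endothelial-like cells the medians were 1.00 and 0.987 against 1.11.

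Over the 43 combinations of cell type and library with at least 50 cells, the genes whose level went most closely with the summed level of the 10, by Pearson's r of log2(CPM + 10) among 5663 genes, were Ccny (0.794), Ctnna1 (0.785), Chmp5 (0.779), Ifit2 (0.774), Tax1bp3, Vapb, Fkbp1a, Nrp1, Pon2 and Myl12a (0.733). Ifit2 was the 1 type I interferon target among them. Between each of the 10 genes and the sum of the other 9 the r was highest for Irgm2 (0.757) and lowest for Igtp (0.115) and F830016B08Rik (0.146). The combinations share libraries and differ in depth, and the values are descriptions.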

How the data were processed

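The authors deposited raw UMI counts per gene and barcode for 4 Visium sections and 4 10x 3′ libraries, with 32285 genes in each. The matrix headers name spaceranger 1.2.0 and cellranger 6.0.0, whereas the submitters' processing notes name Space Ranger 1.3.1, Cell Ranger 7.0.0 and mm10. Counts were summed per section, library and cell type and divided by the total to give CPM. With 1 sample per condition, no test between conditions was run. Depth was 25996378 to 48754396 UMIs per section and 26924592 to 73149357 UMIs in the kept cells of a library. Poisson, Clopper-Pearson and conditional binomial 95% intervals are exact and cover counting error only, since they hold no spread between animals.

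Cells with 200 to 6000 genes, 500 to 30000 UMIs and under 15% mitochondrial UMIs were kept. The 3.2% with the highest Scrublet scores per library were removed as doublets, and the remaining 26189 cells were clustered in Seurat 5.3.0 (3000 variable genes, 30 components, resolution 0.25) without the GTPase and interferon genes. Cell types with under 50 cells in a library were not compared. Shares were also computed with spots thinned to 5000 UMIs and cells to 1000 UMIs. The scripts were tested on simulated data. R 4.3.3 ran the clustering, and the other steps used matplotlib 3.10.9, scanpy 1.11.5, pandas 2.3.3, scipy 1.17.1 and numpy 2.4.6 under Python 3.11.15. No deposited columns of other samples (0) were present.

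The genes, the 7 interferon lists and the 14 marker lists were chosen with earlier results of these data known. The text names all 10 GTPase genes, of each interferon list the 4 genes with the most UMIs over the sections and any ligand or receptor, and the 10 genes most alike in level with a mean of at least 20 CPM. A result that the rule would name is not reported here. Genes named beyond this rule were chosen after their values were seen. The alternatives tried were other totals, depths, references, filters, clusterings and namings, and the use of cluster 4 alone was added after seeing the data. Promoter sequences are RefSeq windows of GRCm38.p6.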

Additional observations from a re-analysis of the deposited data

Results flagged for a closer look

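The sections and the libraries moved in opposite directions under the same contrast. The summed level of the 10 GTPase genes at TAC-4w was 5.97 times sham in the sections and 0.625 times sham in the libraries. At TAC-6w it was 1.68 times sham in the sections and 0.454 times in the libraries. These differences were noted because the 1 section and the 1 library of a condition lay on opposite sides of sham, and they were not tested. The genes were chosen on the TAC-4w section contrast, so the section side at TAC-4w was fixed by the choice. The TAC-4w section and library were each the 1 sample of their batch. The sham section was batch 1 and the sham library batch 3, so TAC-6w shared the batch of sham only in the libraries. The sections also hold cardiomyocytes that the libraries nearly lack. The part of batch or of cardiomyocytes in the difference was not tested.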

How the results depend on the processing

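Within cell types, the TAC-4w ratio crossed 1 under some alternatives in types whose reported interval held 1, ranging from 0.915 to 1.35 in T cell-like, 0.779 to 1.11 in NK cell-like, 0.807 to 2.57 in monocyte-like and 0.968 to 1.06 in platelet-like cells, and with cluster 4 alone the GBP sum of endothelial-like cells went from 1.32 to 0.871. The TAC-4w to sham section ratio of the summed level, 5.97, was 4.99 with mitochondrial and rRNA-like features left out of the total, 6.35 as a mean of the CPM of each spot, 7.53 with TAC-2w as the reference and 6.64 without the 1% of spots richest in these transcripts. Under 7 alternatives, 1 of which was a fold of 1.5 in place of 2, all 10 genes stayed past the fold. The genes were chosen on this contrast, so that count is no result of its own. The share of all genes past 2-fold was 16.4% with at least 1 UMI in place of 50. The share of TAC-4w spots with a GTPase UMI was 90.1% after thinning. The library ratio over all cells, 0.625, was 0.539 with thinned cells and 0.530 with mitochondrial shares under 5%, and the value weighted to the sham make-up was 0.698 with thinned cells. The count of cell types with a TAC-4w interval below 1, 5 of 11, was 8 of 12 with no doublets removed and 9 of 13 with each cell named by its own marker score, which at TAC-6w gave 11 of 11 in place of 7 of 7. The cause of these moves was not tested. Of the other main values, 36 stayed close to those reported. No paired analysis was possible because each condition had 1 section and 1 library, which also left no replicate to leave out. Depth limited Gm4841 and Gbp10 in the libraries.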
